A study of Rattus norvegicus with 8 samples.

Results

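The 10 microglia and macrophage genes Cd14, Lyz2, Aif1, Cx3cr1, Csf1r, Itgam, C1qa, C1qb, Cd68 and Cd163 were followed in the hypothalamus of female and male rats. Members were all non-control spots of the arrays that carried 1 of these gene names, which gave 13 probes among 30367 and 10 genes among the 14603 named genes that could be tested. All animals were Sprague Dawley rats of 3 to 4 months. The 4 females were in estrus, so sex and cycle stage cannot be told apart, and the 4 males were the comparison group. Neither pooling of animals nor separate dissections are described in the sources used here, so p-values measure the spread between these samples. The study was made to learn how the sexes differ in the hypothalamus, with most interest in cytoskeletal genes.

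Microglia are the resident macrophages of the brain. They depend on signals through the receptor Csf1r to survive, sense neurons through the fractalkine receptor Cx3cr1, and clear debris and synaptic material that complement proteins have tagged. A smaller set of macrophages lines the vessels and the meninges and shares most of these genes with microglia, with Cd163 as a gene of that border population. In the hypothalamus these cells touch circuits that control feeding and reproduction. In bulk tissue, fewer cells of a type and less RNA per cell cannot be told apart.

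Each of 4 arrays on 1 slide held 1 female and 1 male of the same replicate number in opposite dyes, with the female in Cy3 on arrays 1 and 3 and in Cy5 on arrays 2 and 4. The Cy3 samples had median net signals of 502 to 530 intensity units and the Cy5 samples of 148 to 272, and 0 spots were saturated. The number of arrays limits the precision. Array 2 stood apart, with a standard deviation of log2 ratios of 0.64 against 0.38 to 0.39 on the others. Its male sample had the lowest median level of 17 hypothalamic markers, 1.83 log2 units below their mean over the samples, and the highest of 9 cortical, hippocampal and striatal markers, 1.71 above. Member ratios and list medians that array 2 moved by over 1.5 times are therefore also given without replicate 2.

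Of the 10 genes, 8 had a fitted female-over-male log2 ratio above 0, where 56.2% of all 14603 genes did, and Cx3cr1 and Csf1r had a ratio below 0. The median of the 10 ratios was 0.23, against 0.02 over all genes. Without replicate 2 the median over the 9 genes that could be fitted was 0.16, and without replicate 1 the median of the 10 was 0.12. Cd14 and Lyz2 were higher in females at an unadjusted p under 0.05 in limma, 2 of 10 genes, and 0 were higher in males. Over all genes, 8.52% passed that level, 5.01% higher in females and 3.51% higher in males. That is 731 of 1244 genes higher in females, a split that depended on the scaling: it was 244 of 776 with median centring, 430 of 1046 with the scanner software's log ratio and 156 of 1168 on the authors' value table. After Benjamini-Hochberg adjustment over 21995 probes 0 members passed 0.05, and neither did any other probe (0%), with a lowest adjusted p of 0.555 in limma, although 1870 probes had an unadjusted p under 0.05.

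On single arrays the median log2 ratio of the 10 genes was 0.35 on array 1, 0.28 on array 2, -0.03 on array 3 and 0.34 on array 4. The number of members above 0 was 7, 8, 5 and 7 in that order. The same medians over all genes lay between -0.02 and 0.02. These array ratios still contained the dye effect of each probe. With it removed, the mean level of the 9 members with values on all arrays was 0.22 in female 1 and -0.21 in male 1. It was 0.16 and -0.18 on array 2, 0.06 and 0.04 on array 3, and 0.0043 and -0.10 on array 4, female first. These levels are relative to the mean over the samples, and the difference was larger on arrays 1 and 2.

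**Figure D1:**
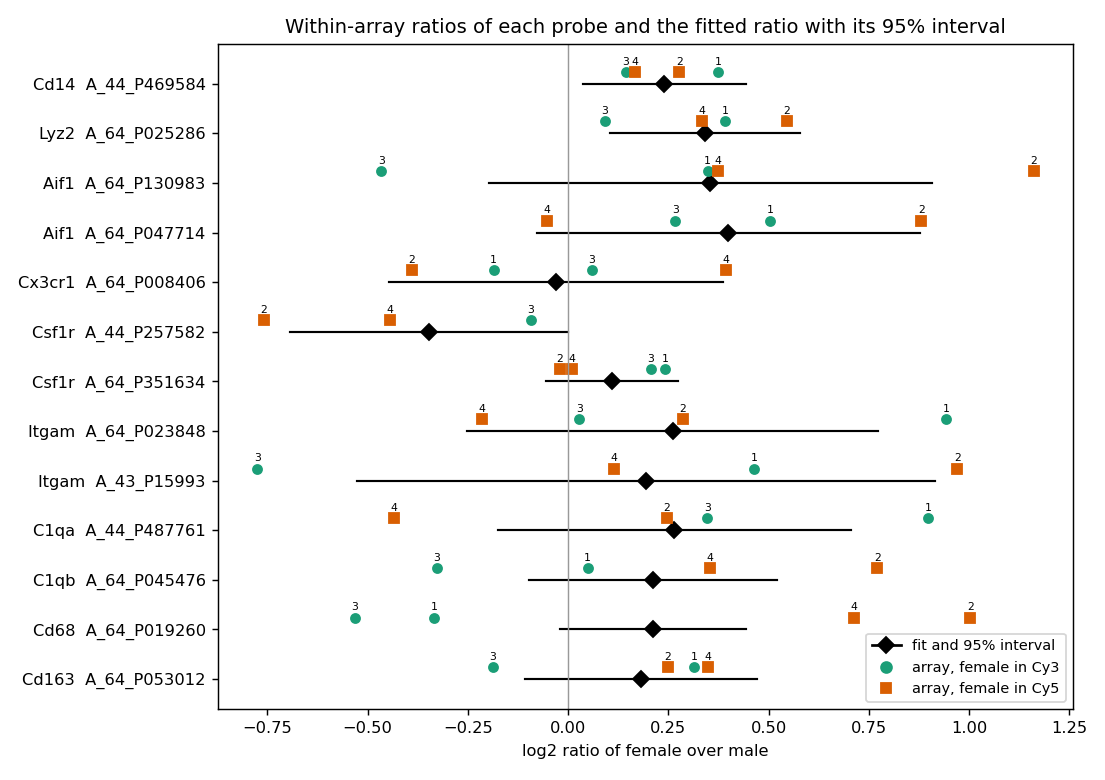
Female-over-male log2 ratio (x axis) of each of the 13 member probes (rows). Points with digits are the arrays, coloured by the dye of the female, and diamonds with lines are the limma fit with its 95% interval; the intervals of Cd14 and Lyz2 lie above 0, and the Cd68 arrays fall on opposite sides of 0 by dye.

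Levels below are log2 signals of each sample in its own channel, normalized within and between arrays and with the dye effect of the probe removed. They are comparable between samples of 1 probe and not between probes. Each log2 ratio is the fitted difference of female and male within arrays, given with its standard error (SE, n = 4 arrays). The ratios of single arrays still contain the dye effect of the probe.

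Cd14 encodes a surface protein that hands bacterial lipopolysaccharide to the Tlr4 receptor complex. Its probe A_44_P469584 lies at chr18:29374990-29375049 on the rn4 build, minus strand. The females, replicates 1 to 4, had levels of 9.06, 8.49, 8.93 and 8.86. The males had 8.71, 8.19, 8.80 and 8.68. The sample of replicate 2 was the lowest of its sex in both sexes, and female 2 lay below 3 of the males, so the sexes overlapped although the female was the higher sample on every array. The 4 array ratios were 0.37, 0.28, 0.14 and 0.17, which gave a log2 ratio of 0.24 ± 0.07 (SE, n = 4; fold 1.18, 95% interval 1.03 to 1.36; limma p = 0.0297, adjusted p = 0.555; exact permutation p = 0.125). That permutation test was two-sided over the 16 sign changes of the arrays, and 0.125 is the smallest p that 4 arrays allow. Without replicate 1, 2 or 3 the unadjusted limma p became 0.183, 0.0677 and 0.0640 (adjusted p 0.9503, 0.598 and 0.980). In the fit of the 8 samples without the array as a block, it was 0.213.

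Csf1r is the receptor for the growth factors Csf1 and Il34 and is needed for the survival of microglia. It had 2 probes that gave different directions, so both sequences are shown, 5′ to 3′ as on the array. They lie 12135 bases apart on rn4, and their longest common stretch has 6 bases.
A_44_P257582: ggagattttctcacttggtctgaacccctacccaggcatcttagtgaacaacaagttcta
A_64_P351634: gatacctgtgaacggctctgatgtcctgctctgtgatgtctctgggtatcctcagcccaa
The first, brighter probe maps to chr18:57105231-57105932, plus strand, a span of 702 bases for 60 bases of probe. The second maps to chr18:57093036-57093095, plus strand.

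For the first Csf1r probe an outlier spot on array 1 was left out, so its values come from 3 arrays. Females 2, 3 and 4 had levels of 9.001, 9.23 and 9.35. Males 2, 3 and 4 had 9.51, 9.58 and 9.54. All 3 males lay above all 3 females, which 13.2% of all genes showed in 1 direction or the other among these replicates. The array ratios were -0.76, -0.09 and -0.44, and the log2 ratio was -0.35 ± 0.11 (SE, n = 3; limma p = 0.05001, adjusted p = 0.555; exact permutation p = 0.25, the smallest that 3 arrays allow), the largest difference towards males among the members. With outlier spots kept the log2 ratio moved towards 0, to -0.17 ± 0.14 (limma adjusted p = 0.636). The left-out spot on array 1 had 643 intensity units above background in the female, in Cy3, and 232 in the male, in Cy5. Those are values before normalization, and the medians of these samples were 502 and 272. Without the array as a block the unadjusted limma p was 0.0355, and Csf1r was then the member with a p under 0.05.

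The second Csf1r probe gave females levels of 7.47, 7.32, 7.51 and 7.50. The males had 7.35, 7.23, 7.42 and 7.38. The groups overlapped through female 2, and the array ratios of 0.24, -0.02, 0.21 and 0.01 were higher where the female carried Cy3. The fitted log2 ratio of 0.11 ± 0.06 (SE, n = 4; adjusted p = 0.565) had the opposite sign to that of the first probe. The mean of both probes gave a log2 ratio of -0.08. The direction of Csf1r therefore depended on the probe, and the difference between the probes was not tested. The second probe was dim, with a signal above background of 24.9 to 117.7 intensity units, against 153 to 1147 for the first. Some of its signals lay below the offset added before logs. With an offset of 16 its log2 ratio was 0.14, without background correction 0.16, and by the scanner software's log ratio 0.21. The first probe had -0.38, -0.42 and -0.43 at these settings.

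Cx3cr1 is the receptor for fractalkine, the ligand Cx3cl1 that neurons present. Its probe A_64_P008406 lies at chr8:125033728-125033787, minus strand, on rn4. The last 30 of its 60 bases are shown because a repeat of CA, in capitals, takes up positions 39 to 60 counted from the 5′ end.
A_64_P008406: aacagattCACACACACACACACACACACA
This run of 22 bases was the longest dinucleotide repeat among the member probes, where the others had at most 5 bases. The 16 letters ACACACACACACACAC, searched on both strands and in both phases of the repeat, occurred in 26 of the 30367 probes (0.0856%).

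Females had Cx3cr1 levels of 11.95, 12.80, 12.27 and 12.61. Males had 12.10, 13.22, 12.18 and 12.25. Male 2 was the highest of all samples and lay apart from the 3 other males, and female 2, hybridised to the same array, was the highest female. The array ratios were -0.19, -0.39, 0.06 and 0.39, and the log2 ratio was -0.03 ± 0.15 (SE, n = 4; 95% interval -0.45 to 0.39; limma adjusted p = 0.941). It was 0.17 ± 0.09 without replicate 2 and 0.03 without replicate 1, on the other side of 0. Cx3cr1 had the largest spread within the sexes of the members, a pooled standard deviation of 0.46 against a median of 0.15 over all genes. Male 2 exceeded the mean of the other males by 1.05 for Cx3cr1. The median of the same difference was 0.58 over the 26 probes with the repeat and -0.0040 over the 21823 tested probes with a value in all samples, and 14 of the 25 other repeat probes were above 0. The part of the repeat in the level of male 2 was not tested.

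**Figure D2:**
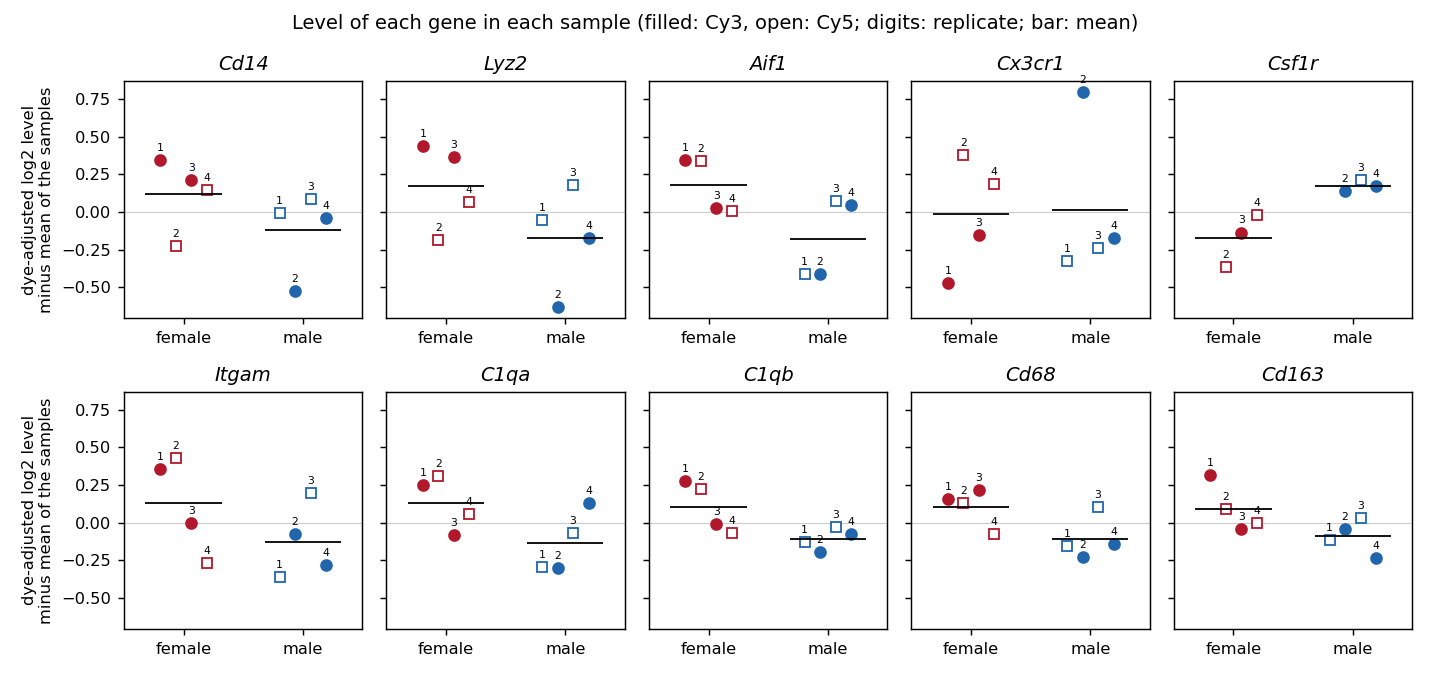
Dye-adjusted log2 level of the brightest probe of each gene minus its mean over the samples (y axis), for females and males; filled points are Cy3, open points Cy5, digits replicates and bars group means. Male 2 is the lowest sample for Cd14, Lyz2, C1qa, C1qb and Cd68 and the highest for Cx3cr1. The sexes overlap in every panel but Csf1r, where replicate 1 is left out.

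Itgam encodes the alpha chain (CD11b) that pairs with Itgb2 to form a complement receptor on microglia and other myeloid cells. Its 2 probes overlap, and their shared stretch of 34 bases, in capitals, shows why they are not independent measurements.
A_64_P023848: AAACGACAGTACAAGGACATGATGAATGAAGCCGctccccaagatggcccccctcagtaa
A_43_P15993: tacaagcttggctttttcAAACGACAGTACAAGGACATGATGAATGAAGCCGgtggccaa
The shared letters are positions 1 to 34 of the first and 19 to 52 of the second, and the bases after them differ, 26 in the first and 8 in the second. On rn4 the first lies at chr1:187385524-187385583 and the second spans chr1:187385032-187385565, both on the plus strand.

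For the first, brighter Itgam probe females had levels of 9.33, 9.41, 8.98 and 8.71. Males had 8.62, 8.90, 9.17 and 8.70. Females 1 and 2 were above all males, while female 4 was level with male 4. The array ratios were 0.94, 0.29, 0.03 and -0.21, with a log2 ratio of 0.26 ± 0.19 (SE, n = 4; limma adjusted p = 0.610). Without replicate 3 the log2 ratio was 0.49 and its unadjusted limma p 0.0474 (adjusted p = 0.980), and without replicates 1 and 2 in turn the log2 ratio was 0.03 and 0.14. The second probe had array ratios of 0.46, 0.97, -0.78 and 0.11 and a log2 ratio of 0.19 ± 0.27 (SE, n = 4; adjusted p = 0.762). Its sign turned without replicate 1, to -0.12, and without replicate 2, to -0.02. Before removal of the dye effect, both probes had a ratio above 0 on arrays 1 and 2, but on arrays 3 and 4 their signs differed. Their fitted dye effects were -0.22 for the first and 0.35 for the second. With the dye removed, female 3 lay below male 3 for both probes (8.98 against 9.17, and 8.605 against 9.032). On array 4 the directions still differed (8.71 against 8.70, and 7.93 against 8.17).

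C1qa and C1qb encode chains of C1q, the protein that starts the classical complement pathway, and in the brain microglia are its main source. Their probes, A_44_P487761 at chr5:155662578-155662637 and A_64_P045476 at chr5:155647530-155647589, both on the minus strand, lie 14988 bases apart. For C1qa, females had levels of 12.99, 13.05, 12.66 and 12.80. Males had 12.45, 12.44, 12.67 and 12.87. Females 1 and 2 were the highest samples and males 1 and 2 the lowest, while the sexes overlapped in replicates 3 and 4. The array ratios of 0.90, 0.25, 0.35 and -0.43 gave a log2 ratio of 0.26 ± 0.16 (SE, n = 4; adjusted p = 0.577), and 0.09 without replicate 2.

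For C1qb, females had levels of 13.64, 13.59, 13.36 and 13.30. Males had 13.24, 13.17, 13.34 and 13.29. Male 3 was the 1 male above a female, replicate 4, and the other males lay below all females. The array ratios were 0.05, 0.77, -0.33 and 0.35, and the log2 ratio was 0.21 ± 0.11 (SE, n = 4; adjusted p = 0.565). Without replicate 2 it was 0.11. For C1qb as for C1qa, females 1 and 2 lay above males 1 and 2.

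Aif1, the actin-binding protein Iba1 used to stain microglia, had 2 probes on the plus strand of chromosome 20, A_64_P130983 at chr20:3716264-3716323 and A_64_P047714 at chr20:3716146-3716205, which are 58 bases apart. The first, brighter probe gave females levels of 12.19, 12.18, 11.87 and 11.85. Males had 11.43, 11.43, 11.92 and 11.89. Females 1 and 2 were higher than all males, and males 3 and 4 were higher than females 3 and 4. The array ratios of 0.35, 1.16, -0.47 and 0.37 gave a log2 ratio of 0.35 ± 0.20 (SE, n = 4; adjusted p = 0.569), and 0.16 without replicate 2.

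The second Aif1 probe gave females levels of 11.95, 12.16, 11.79 and 11.92. Males had 11.43, 11.29, 11.51 and 11.98. Here 3 males lay below all females, and male 4 lay above 3 of the females. Its array ratios were 0.50, 0.88, 0.27 and -0.05, and its log2 ratio was 0.40 ± 0.18 (SE, n = 4; limma adjusted p = 0.555). Without replicate 4 the log2 ratio was 0.63 and the adjusted p 0.0425, in a fit in which 1479 probes passed 0.05. The log2 ratio was 0.17 without replicate 2. Before removal of the dye effect, the probes had the same sign on arrays 1 and 2 and opposite signs on arrays 3 and 4. Their fitted dye effects were 0.41 for the first and 0.01 for the second. With the dye removed, female 4 lay below male 4 for both probes (11.85 against 11.89, and 11.92 against 11.98). On array 3 the directions still differed.

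Lyz2 encodes lysozyme M, an enzyme of macrophage granules that cuts bacterial cell walls. Its probe A_64_P025286 lies at chr7:56607738-56607797, minus strand. The RefSeq gene table also holds Lyc2, a lysozyme gene on the same chromosome with Lyz2 among its synonyms, and whether the probe detects its RNA was not tested. Females had levels of 13.70, 13.08, 13.63 and 13.33. Males had 13.21, 12.63, 13.44 and 13.09. As for Cd14, the samples of replicate 2 were the lowest of each sex, the sexes overlapped, and the female was the higher on every array. Same signs on 4 arrays were found for Cd14 and Lyz2, 2 of the 9 members with 4 values, and for 10.6% of all genes.

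The Lyz2 array ratios of 0.39, 0.55, 0.09 and 0.33 gave a log2 ratio of 0.34 ± 0.09 (SE, n = 4; fold 1.27, 95% interval 1.07 to 1.49; limma p = 0.0156, adjusted p = 0.555; exact permutation p = 0.125). Without replicate 1 the log2 ratio was 0.27 (adjusted p = 0.9503), and the unadjusted limma p rose above 0.05, to 0.0992. Without replicates 2, 3 and 4 in turn it was 0.29, 0.42 and 0.39, and the unadjusted limma p stayed under 0.05. The unadjusted p was 0.147 without the array as a block and 0.0960 on the authors' value table.

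Cd68 encodes a glycoprotein of lysosomes that is abundant in phagocytes. Its probe A_64_P019260 lies at chr10:56481726-56481785, minus strand. The array ratios were -0.33, 1.00, -0.53 and 0.71, so the sample in Cy5 was the higher on every array, whatever its sex. The fitted dye effect, Cy5 over Cy3, was 0.65 on the log2 scale (adjusted p = 0.0262 in limma), and Cd68 was the 1 member of 10 past 0.05 for dye, against 13.3% of all genes. After removal of the dye effect, females had levels of 9.47, 9.44, 9.53 and 9.24. Males had 9.16, 9.09, 9.42 and 9.17. With the dye removed, 3 of the females lay above all males. The log2 ratio was 0.21 ± 0.09 (SE, n = 4; limma adjusted p = 0.555), and 0.14 without replicate 2.

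Cd163 encodes the scavenger receptor for haemoglobin bound to haptoglobin, found on perivascular and meningeal macrophages. Its probe A_64_P053012 lies at chr4:160423704-160423763, plus strand. Its signal above background was 26.7 to 89.9 intensity units, low beside the offset of 50 added before logs, and well above background in all 8 samples. Females had levels of 7.50, 7.27, 7.14 and 7.18. Males had 7.07, 7.14, 7.21 and 6.95. Female 1 was the highest and male 4 the lowest sample, and the others overlapped. The array ratios of 0.31, 0.25, -0.19 and 0.35 gave a log2 ratio of 0.18 ± 0.11 (SE, n = 4; adjusted p = 0.573). It was 0.06 without replicate 1. With an offset of 16 it was 0.24, without background correction 0.38, and by the scanner software's log ratio 0.66, with adjusted p-values in limma of 0.572, 0.587 and 0.604.

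No member with values on all arrays had levels that separated the 4 females from the 4 males (0 of 9), which 6.21% of all genes did. The mean level of the 9 members with all values, relative to the mean over the samples, was 0.22, 0.16, 0.06 and 0.0043 in females. It was -0.21, -0.18, 0.04 and -0.10 in males. Females 1 and 2 were the highest and males 1 and 2 the lowest, and male 3 lay between female 3 and female 4. Within the sexes, the spread ranged from a pooled standard deviation of 0.13 for Csf1r and C1qb to 0.32 for Lyz2 and 0.46 for Cx3cr1.

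The members did not vary alike. Across the 8 samples, the correlation of each gene with the mean of the 9 was 0.93 for Aif1 and C1qb, 0.87 for Cd68, 0.84 for Itgam, 0.80 for C1qa and Cd163, 0.64 for Lyz2, 0.53 for Cd14 and -0.26 for Cx3cr1. Each gene is part of that mean, and samples share arrays, so these are descriptions. Among 13835 genes well above background in all samples, the non-member genes most like the mean were Prkcsh (r = 0.99), Nfkb2 (0.98), Lrrc56 (0.97), RGD1560633 (0.97) and Hist1h4b (0.96), over 8 samples. All 5 had a fitted log2 ratio above 0, from 0.16 for Nfkb2 to 0.24 for Hist1h4b. They were chosen for likeness to a mean that was itself higher in females, so this direction followed from the choice.

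Ligands and partners of the members were read from the same fit. Of 22 listed partners 21 were on the array and 19 were tested, 1 was higher in females at an unadjusted p under 0.05 and 0 were higher in males, with 13 ratios above 0 and a median of 0.07, or 0.02 without replicate 2. The ligands of Csf1r had log2 ratios of 0.12 ± 0.09 for Csf1 and 0.10 ± 0.08 for Il34, and the receptor chain Csf2ra had 0.07 ± 0.09. Cx3cl1, the ligand of Cx3cr1, had -0.35 ± 0.22, with array ratios of 0.20, -1.50, 0.21 and -0.29. As for Cx3cr1, its highest level was that of male 2, here 16.41 before removal of the dye effect, against 14.85 to 15.28 in the other males.

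In the lipopolysaccharide pathway of Cd14, the adaptor Myd88 had a log2 ratio of 0.27 ± 0.11 and the receptor Tlr4 0.15 ± 0.09. The co-receptor Ly96 had -0.08 ± 0.06, Lbp -0.02 ± 0.19, Tlr2 -0.01 ± 0.15 and the kinase Irak4 0.07 ± 0.06. Itgb2, the partner chain of Itgam, had 0.02 ± 0.07, and Icam1, a ligand of that integrin family, had 0.36 ± 0.11 (SE, n = 4; limma p = 0.0307, adjusted p = 0.555; exact permutation p = 0.125), the 1 partner with an unadjusted p under 0.05. Icam1 had array ratios of 0.46, 0.58, 0.36 and 0.03. The signalling adaptor Tyrobp had 0.24 ± 0.14, its receptor Trem2 0.33 ± 0.13 and the kinase Syk 0.04 ± 0.06. For Trem2 the array ratios were 1.17, -0.09, 1.01 and -0.74, so the sample in Cy3 was the higher on every array, whatever its sex. Its fitted dye effect was -0.75. The myeloid transcription factors Spi1, Irf8 and Runx1 had 0.09 ± 0.12, -0.03 ± 0.07 and 0.08 ± 0.08.

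A wider list of other microglia genes did not have the members' median. Of 28 tested, 13 ratios were above 0 and 15 below, the median was -0.04 (-0.01 without replicate 2), and 0 were higher in females and 1 in males at an unadjusted p under 0.05. That gene was P2ry12, a purine receptor of resting microglia, which was lower in the female on each of the 4 arrays (-0.12, -0.30, -0.62 and -0.26) with a log2 ratio of -0.33 ± 0.11 (SE, n = 4; limma p = 0.0340, adjusted p = 0.555; exact permutation p = 0.125). Without replicate 2 the list held 0 genes at that level. Tmem119, a surface protein of microglia, had -0.34 ± 0.13, and Sall1, a transcription factor of microglia, had -0.15 ± 0.06. These 3 genes were named for the smallest p-values of a list whose ratios fell on both sides of 0. Among 14 border and tissue macrophage genes, 11 ratios were above 0, the median was 0.10, and 0 passed in either direction. That median was 0.02 without replicate 2 and -0.02 without replicate 1. Siglec1, Clec10a and Cd4 had the smallest p-values there, with 0.14 ± 0.06, 0.34 ± 0.17 and -0.10 ± 0.06.

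Complement genes other than C1qa and C1qb had 13 of 16 ratios above 0 and a median of 0.25, with 2 higher in females at an unadjusted p under 0.05 and 0 in males. Array 2 had the highest complement median of the arrays, 0.69 against -0.18 to 0.06, and without replicate 2 the fitted median was 0.08, with 12 of 16 ratios above 0. The 2 genes were C2, with array ratios of 0.24, 1.37, 0.05 and 0.59 and a log2 ratio of 0.56 ± 0.15, and C3, with 0.97, 0.35, 1.44 and -0.45 and a log2 ratio of 0.58 ± 0.17 (adjusted p = 0.555 in limma for both). Of 19 lysosomal and phagocytic genes, which Lyz2 and Cd68 resemble in function, 9 ratios were above 0 and the median was -0.02, or -0.0011 without replicate 2. Ctsz, at 0.29 ± 0.10, was the 1 higher in females and Psap, at -0.64 ± 0.23, the 1 higher in males, and Axl had -0.29 ± 0.11. Among 18 cytokine and inflammation genes 11 ratios were above 0, the median was 0.03 (0.02 without replicate 2), and Il18 (0.60 ± 0.15) and Nfkbia (0.24 ± 0.08) were higher in females, 2 genes against 0, with Il1rn at 0.15 ± 0.07.

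**Figure D3:**
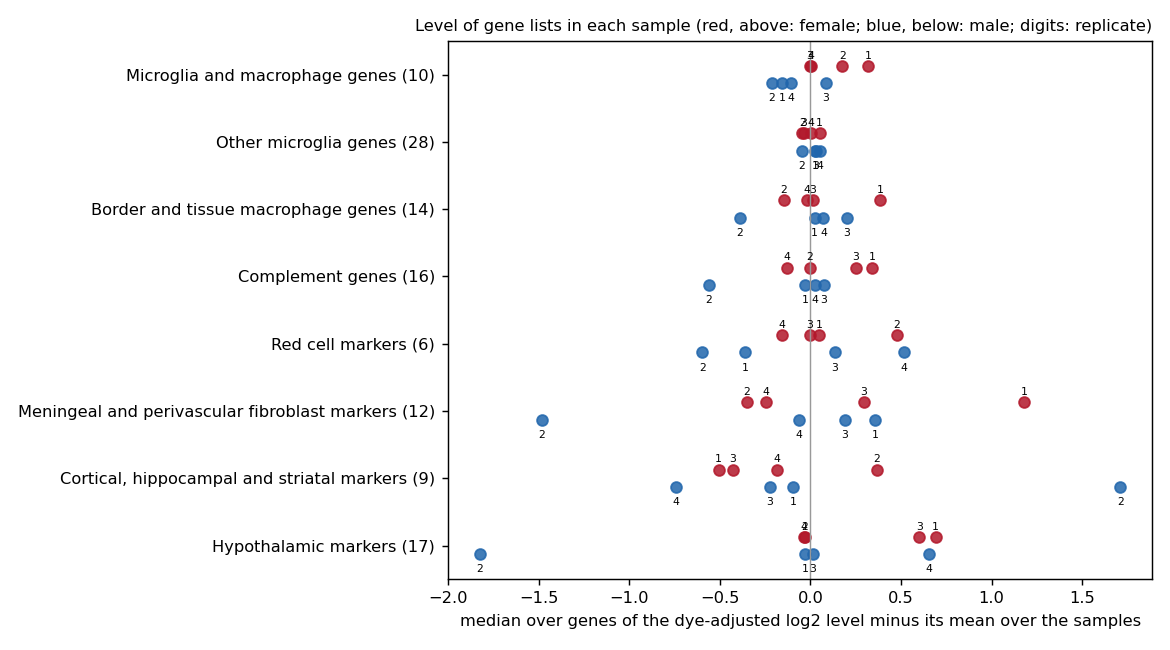
Median over the genes of each list (rows, number of genes in brackets) of the dye-adjusted log2 level minus its mean over the samples (x axis), for each female (red, upper) and male (blue, lower), with replicate digits. Male 2 has the lowest level of hypothalamic and meningeal markers and the highest of cortical markers, while the other microglia genes lie within 0.06 of 0 in all samples.

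Markers of other cells that share or neighbour these genes also differed between samples. Of 12 neutrophil and granulocyte markers, 3 passed the filter, and S100a8, S100a9, Mpo and Elane did not. Those tested, Camp, Csf3r and Fpr1, had ratios from -0.03 to 0.09. Of 8 lymphocyte markers 7 had ratios above 0, with a median of 0.01 (0.04 without replicate 2), and Zap70 at 0.44 ± 0.09 was the 1 with an unadjusted p under 0.05, against Cd3g at 0.18 and Cd3d at 0.08. Red cell markers had a median ratio of 0.17 over 6 genes and 0 passed; without replicate 2 the median was -0.32 and 0 of the 6 ratios were above 0. Their level relative to the mean ran from -0.16 to 0.48 in females and from -0.60 to 0.51 in males, with Hbb, Alas2 and Slc4a1 at 0.34 ± 0.52, 0.26 ± 0.40 and -0.17 ± 0.14.

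Meningeal and perivascular fibroblast markers, from the tissue that houses the Cd163 population, had 11 of 12 ratios above 0, a median of 0.46 and 3 genes higher in females at an unadjusted p under 0.05, Slc47a1 (0.67 ± 0.07), Ogn (1.06 ± 0.19) and Slc6a20a (0.49 ± 0.15). The array ratios of Ogn were -0.76, 3.33, -0.59 and 2.27, so the sample in Cy5 was the higher on every array, whatever its sex. Array 2 had a median of 1.59 for this list, against -0.66 to 0.65 on the others, and without replicate 2 the fitted median was 0.14, with 8 of 12 ratios above 0. Their level ran from -0.35 to 1.18 in females and from -1.48 to 0.36 in males, and female 1 and male 2 were the ends. The same samples were the ends for Cd14, Lyz2 and C1qb and for several other lists, among them complement and hypothalamic genes. For Cd163 the ends were female 1 and male 4. Choroid plexus and ependymal markers had 3 of 9 ratios above 0 and a median of -0.06 (-0.25 without replicate 2), with Tmem212 (0.33 ± 0.09) and Drc12 (0.26 ± 0.09) higher in females and Ttr (-1.79 ± 0.53) in males. Endothelial and mural markers had 7 of 12 above 0, a median of 0.05 (0.02 without replicate 2), and Myh11 (0.62 ± 0.11) and Tagln (0.51 ± 0.16) higher in females, with Acta2 at 0.47 ± 0.20. For Myh11, as for Ogn, the sample in Cy5 was the higher on every array (-0.21, 1.83, -0.60 and 1.47). For Tmem212 it was the sample in Cy3 (1.09, -0.27, 0.72 and -0.25). The part of these cell types in the levels of the members was not tested.

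Astrocyte markers had 3 of 8 ratios above 0 and a median of -0.07, with Gfap at -0.39 ± 0.12 the 1 higher in males, Aqp4 at -0.22 ± 0.13 and Slc1a2 at -0.29 ± 0.18. All 8 oligodendrocyte markers had ratios below 0, with a median of -0.21 (-0.11 over 7 genes without replicate 2), among them Mbp at -0.25 ± 0.11 and Mobp at -0.15 ± 0.07, which did not pass an unadjusted p of 0.05. The 9 cortical, hippocampal and striatal markers had -0.43 as their median, with Lhx2 (-1.06 ± 0.29) and Neurod6 (-0.96 ± 0.33) higher in males and Drd2 at 0.44 ± 0.18. Hypothalamic markers had 16 of 17 ratios above 0 and a median of 0.71, with Kiss1 (0.48 ± 0.09), Gnrh1 (0.99 ± 0.20) and Crh (0.86 ± 0.20) higher in females at an unadjusted p under 0.05. Both regional medians rested on array 2, where they were 2.47 for hypothalamic and -1.67 for cortical, hippocampal and striatal markers. On the other arrays the hypothalamic median was 0.13, 0.04 and -0.13, and the cortical one -0.31, -0.14 and 0.11. Without replicate 2 the fitted medians were 0.0036, with 9 of 17 ratios above 0, and 0.06, with 5 of 9 above 0, against 0.16 for the members. The part of dissection in the members' ratios was not tested. Without replicate 4 the medians were 1.16 for hypothalamic, -0.91 for cortical, 0.73 for meningeal and 0.42 for complement genes, against 0.32 for the members. The list medians without single replicates were computed after the data had been seen.

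**Figure D4:**
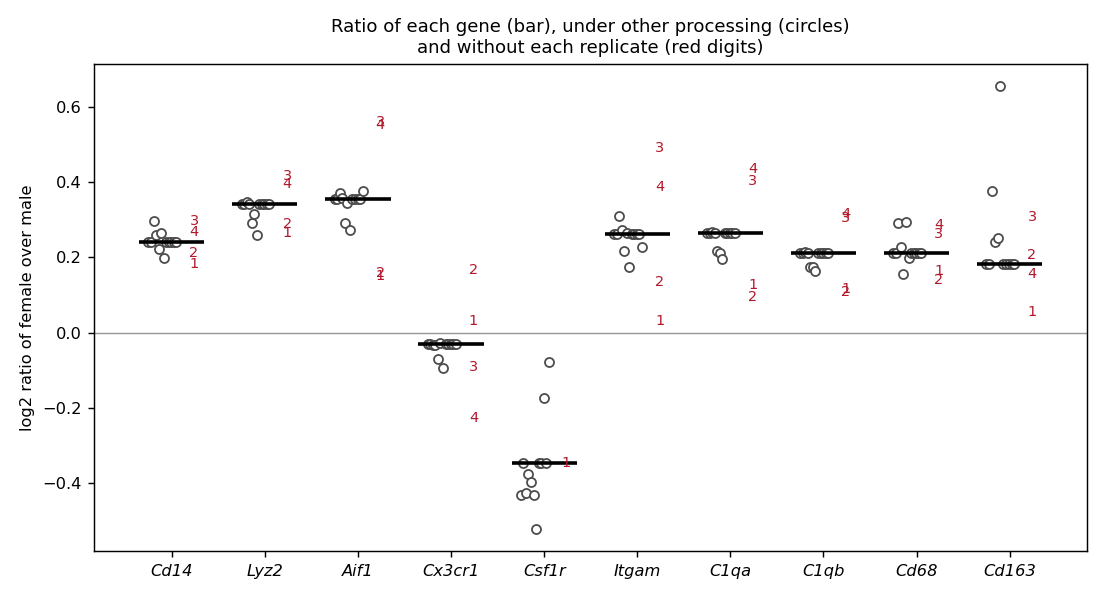
Female-over-male log2 ratio (y axis) of each member gene (x axis) in the reported fit (bar), under other processing with all arrays (circles) and without each replicate (red digits). Genes are shown by their brightest probe, or in 1 alternative by the mean of their probes. The ratios of 8 genes stay above 0 and those of Csf1r below 0 at every setting that could be fitted, while Cx3cr1 changes sign without replicates 1 and 2. For Csf1r the red digit is replicate 1 alone, where its probe had no value, so leaving out replicates did not test its sign. The second Csf1r probe had a ratio of 0.11, and the second Itgam probe -0.12 and -0.02 without replicates 1 and 2.

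Leaving out single replicates moved both the count of members and their ratios. At an unadjusted p under 0.05 in limma the count was 0 without replicate 1, 1 without replicate 2 (Lyz2), 2 without replicate 3 (Itgam and Lyz2) and 6 without replicate 4 (Aif1, C1qa, C1qb, Cd14, Cd68 and Lyz2). Over all genes, 4.06%, 8.03% and 1.99% passed that level without replicates 1, 2 and 3 in turn. Without replicate 4, however, 31.1% of all genes passed that level, against 8.52% with all arrays. By their brightest probes, 0 of the 9 member genes passed an adjusted p of 0.05 in that fit, while the second Aif1 probe had 0.0425 in limma. Without single replicates the log2 ratio of Itgam ranged from 0.03 to 0.49, of Aif1 from 0.15 to 0.56, of C1qa from 0.09 to 0.43, of C1qb from 0.11 to 0.32, of Cd68 from 0.14 to 0.29 and of Cd163 from 0.06 to 0.31. That of Cx3cr1 ranged from -0.23 to 0.17. The log2 ratio of Cd14 ranged from 0.18 to 0.30 and that of Lyz2 from 0.26 to 0.42 over 16 alternatives, with an unadjusted p under 0.05 in 8 and 13 of them and adjusted p-values from 0.137 and 0.0883 to 0.9995. Over all other lists 24 genes passed the unadjusted level with all arrays, 14 without replicate 3 and 82 without replicate 4, where 6 partners, 9 other microglia genes and 10 complement genes were among them.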

How the data were processed

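RNA from the hypothalamus of 4 females in estrus and 4 males was hybridised to 4 two-colour arrays, with each sample's dye taken from the labels. Agilent Feature Extraction 10.7.3.1 quantified the scans, per the submitters' processing notes. Spot and background signals are intensity values as scanned, per the file headers. The scanner software's ratio is given as log10, red divided by green, per the file headers. The value table that the authors deposited holds log2 values that equal median signal minus background on the log2 scale, apart from a constant for each sample, to within 0.01 for 100% of values. Probe positions are those of the array files on rn4, with no exon or UTR annotation used here. RefSeq accessions named 17328 of the 30367 probes, and the array files gave the remaining names.

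The normexp correction (offset 50) was applied to mean signals with their local background medians, followed by loess within each array with controls at weight 0. The limma 3.58.1 fit (R 4.3.3, with version 1.17.8 of data.table and jsonlite 2.0.0) had terms for sex and dye. Levels came from the same channels after Aquantile normalization. Each array lost 931 to 1096 outlier spots, and replicate spots were averaged. Probes were kept where over 0.5 of their spots exceeded background clearly in each of the 4 samples of 1 sex or both. This left 22004, of which 21995 could be fitted, and Benjamini-Hochberg adjustment ran over these. The brightest probe stood for a gene. The pairing comes from the shared array, which is the block of the fit. As a check, deviations from the mean of each sex were correlated between the samples sharing an array, over genes, which are not independent replicates, and r was 0.61, 0.68, 0.46 and -0.08 in array order.

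The members and lists were chosen with earlier results of these data known, so lists are described by counts and medians without a test. Named genes were all member probes, all tested signalling partners, the up to 3 genes with the smallest p in every other list, and the 5 genes whose level over the samples correlated best with the mean of the members. A few genes that this rule names are not reported here. Alternatives were no dye term, no array block, other background corrections and filters, centring on the median, the log ratio from the scanner software, the deposited values, outlier spots kept, an intensity trend with a robust prior, the mean of a gene's probes, and leaving out each replicate. The fit was tested on simulated data. Figures used matplotlib 3.10.9 under Python 3.11.15.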

Additional observations from a re-analysis of the deposited data

Results flagged for a closer look

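The Cx3cr1 level of male 2, 13.22 on the log2 scale, lay apart from the other males at 12.10 to 12.25, with a gap that took 0.872 of the range of the 4 males. It was the 1 such sample among 24 groups of 4 samples examined over the member probes, and chance sets apart about 1 in 20 groups. Female 2, on the same array, was the highest female at 12.80.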

How the results depend on the processing

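The median of the members' log2 ratios stayed between 0.12 and 0.32 over 16 alternatives. The number of members with an unadjusted p under 0.05 was 2 in the reported fit, where 8.52% of all genes passed. It was 1 without the replicate block (Csf1r in place of Cd14 and Lyz2), against 7.4% of all genes. Lyz2 alone passed with median centring (5.31% of all genes), the scanner software's log ratio (7.16%) and an intensity trend with a robust prior (7.77%). The count was 0 of 9 on the authors' value table (9.70%) and 2 with no dye term (2.77%). With no filter on dim probes it was 3, Cd14, Csf1r and Lyz2 (8.76%). Without 1 replicate it was 0 to 6, where 1.99% to 31.1% of all genes passed. The count over the other lists, 24, was 10 with no dye term, 15 without the replicate block and 14 to 82 without 1 replicate. Probes past an adjusted p of 0.05 numbered 0 under the 12 alternatives with all arrays and 0 to 1479 without 1 replicate, with 1479 without replicate 4. Cx3cr1 ranged from -0.23 to 0.17 without 1 replicate, above 0 without replicate 1 (0.03) and replicate 2 (0.17), and the cause was not tested. The first Csf1r probe could not be fitted without replicate 2, 3 or 4, and Cd163 was not fitted on the value table. The median of all genes was -0.07 on that table and at most 0.03 elsewhere. All 13 member probes were well above background in all 8 samples, and the number of arrays limits precision.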
